A study of Mus musculus with 6 samples.

Results

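The p53 target genes and apoptosis regulators examined here are 50 genes given by symbol: transcriptional targets of p53, the p53 and p73 genes themselves, the Bcl-2 family, death receptors and their adaptors, caspases other than Casp8 and Casp2, and the inhibitors of apoptosis with their antagonist. Of these 50 names, 30 had an entry (such as ERCC5, PHLDA3, CDKN1A and MDM2, since the files write symbols in capitals) among the 16381 of the authors' deposited table of changes, and 20 had none. The data come from cutaneous squamous cell carcinomas of mixed C57BL/6 and CD1 mice of genotype p53+/-, p63L/L; K14-CreER, treated weekly with 25 mg of the carcinogen DMBA until tumours formed. A primary tumour was disaggregated and grown orthotopically in Nude recipients for 13 days, and the recipients then received tamoxifen (p63-excised, 3 tumours) or vehicle (p63-intact, 3 tumours) daily for 5 days. Harvest followed the last dose by 1 to 3 days, and RNA of whole tumours was hybridised to Illumina bead arrays. Every tumour of both groups therefore came from p53-heterozygous tissue, and the sources used here do not say whether the remaining p53 allele was still present. Cre is driven by the keratin 14 promoter, so excision is aimed at keratin 14-expressing tumour cells and not at stroma or other host cells. Tamoxifen and excision always went together and cannot be told apart. Since the labels do not say that each numbered tumour had its own host, the p-values cover only the spread among these arrays, part of which may be technical.

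p53 is a transcription factor that is stabilised by DNA damage and other stress and that switches on genes for cell cycle arrest, DNA repair and cell death, among them Mdm2, whose protein returns p53 to a low level. p63 belongs to the same family and recognises nearly the same DNA element. In keratinocytes the ΔNp63 isoforms are known to occupy p53 target genes, where they can repress some and activate others. Mitochondrial apoptosis is set by the Bcl-2 family: BH3-only proteins such as Bid, Noxa (Pmaip1), Puma (Bbc3), Bim (Bcl2l11), Bmf and Bik activate Bax and Bak or neutralise their inhibitors Bcl2 and Mcl1. Cytochrome c then leaves the mitochondria and assembles with Apaf1 and caspase 9 into the apoptosome, which activates the executioner caspases. Death receptors such as Fas start a parallel route through Fadd, Ripk1 and caspase 8.

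The shared p53 and p63 element was searched for in the members' promoters because many of them are known as direct p53 targets. The p53 response element consensus consists of 2 half-sites of 10 bases, here without a spacer. The consensus is its own reverse complement, so a match counts for both strands. With the core C and G of both half-sites required and at most 3 mismatches in 20 bases, 7 of the 41 members with a RefSeq promoter (GRCm38.p6, 250 bases before to 50 after the annotated start) held a match, or 17.1%. Among all 27025 genes with a promoter the share was 1.63%, and 1.38% of all 32851 promoters of this length held a match. This is a description, since many members were chosen as known p53 targets. The 7 members were Cdkn1a, Ccng1, Trp73, Aen, Sesn1, Trp53 and Bbc3. The authors' deposited table had no entry for Trp73 and Aen. The matches of the other 5 are shown 5′ to 3′ with 5 flanking bases on each side and the 20 bases of the element in capitals.
Cdkn1a, chr17:29090923-29090952, + strand: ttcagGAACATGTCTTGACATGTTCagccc
Ccng1, chr11:40755457-40755486, - strand: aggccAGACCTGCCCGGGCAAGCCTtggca
Bbc3, chr7:16309481-16309510, + strand: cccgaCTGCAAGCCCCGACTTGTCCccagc
Sesn1, chr10:41887261-41887290, + strand: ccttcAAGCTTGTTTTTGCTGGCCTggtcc
Trp53, chr11:69580279-69580308, + strand: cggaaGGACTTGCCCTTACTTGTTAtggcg
The Cdkn1a and Ccng1 matches had 1 mismatch each and those of Bbc3, Sesn1 and Trp53 had 3. The Cdkn1a element lay 51 to 32 bases before an annotated start, and that of Ccng1 195 to 176 bases before its start. These matches are letters in a window and do not show binding, and a member without one may carry an element elsewhere.

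Each value given for a gene rests on the authors' deposited table alone, because the files do not pair array probes with gene names, and so no value per tumour can be given for a member. That table gives a log2 change (p63-excised minus p63-intact), a mean log2 level, a t score and an unadjusted p for each entry. The group levels, standard errors and 95% intervals below were computed from those columns and are approximate for small changes, since the table is rounded to 2 decimals. An entry was called if its p, adjusted by the Benjamini-Hochberg method over all 45281 probes of the array, was under 0.05. The largest p of any entry of the authors' deposited table was 0.462. Of the 20 members without an entry, Xiap was found under an older symbol, and for the other 19 a larger p, another name and no probe cannot be told apart. The intact arrays had 13757 to 16096 probes detected above background and the excised arrays 11964 to 14520, with the fewest detected probes and the highest median signal on array p63-excised 2. Results without that array could not be computed for named genes. The basal keratin genes Krt14 and Krt5, markers of keratinocytes, had mean log2 levels of 14.02 and 11.65 per the authors' deposited table. Trp63, the target of the excision, was at -0.25 in log2 change (p = 0.0639) by the authors' deposited table and so missed the threshold.

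None of the 30 listed members passed the adjusted threshold between excised and intact tumours, where 1.16% of all entries of the authors' deposited table did, 0.659% higher and 0.501% lower. At an unadjusted p under 0.05, 12 of the 30 members were found, 3 with a higher and 9 with a lower level in excised tumours. That is 40.0% of the listed members, beside 19.9% of all entries, 9.31% higher and 10.6% lower, per the authors' deposited table. That share depended on the level of the entries, and the median level was 5.52 for listed members and 4.94 for all entries. At a mean log2 level of 5.5 or more, 8 of 15 members had an unadjusted p under 0.05 (53.3%), beside 42.9% of such entries by the authors' deposited table. Below that level the counts were 4 of 15 members (26.7%) and 11.8% of entries. The median log2 change of the listed members was -0.14, beside 0.05 for all entries, and 21 of 30 had negative changes, as did 8030 of the 16381 entries, per the authors' deposited table. At a level of 5.5 or more the medians were -0.29 for members and -0.10 for entries, and below it -0.09 and 0.05, by the authors' deposited table. Other call rules gave these counts of members, with the share of all entries in brackets: 0 with a log-odds score above 0 (2.15% of entries), 0 past adjustment at a level of 5.5 or more (3.21%), 4 at an unadjusted p under 0.01 (7.85%) and 2 at one under 0.05 with a log2 change of at least 0.5 (6.75%). The adjustment at a level of 5.5 or more kept all probes of the array as tests, so it could add no call. The counts and medians above cover listed members only, and leave out those whose p may have been above 0.462. The changes of the 30 ran from -0.66 for Phlda3 to 0.51 for Casp14 by the authors' deposited table.

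**Figure D1:**
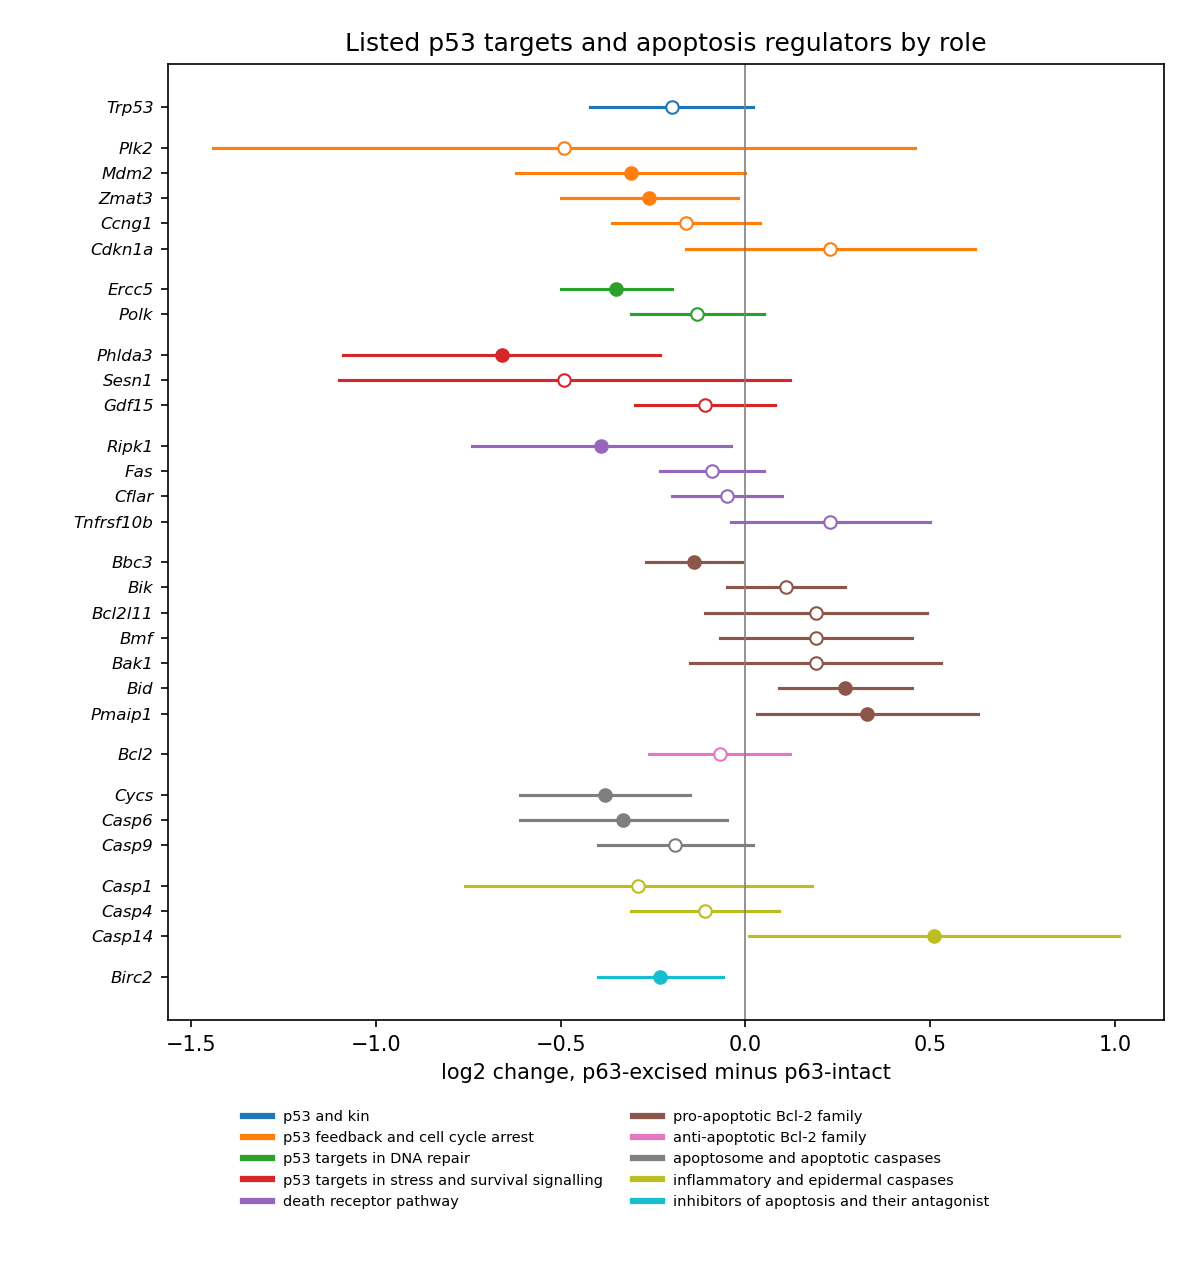
Log2 change (p63-excised minus p63-intact, x axis) of the 30 listed members, grouped and coloured by role. Points are the authors' deposited changes, filled where the unadjusted p was under 0.05, and lines are the 95% intervals implied by their t scores. All 7 pro-apoptotic Bcl-2 genes except Bbc3 lie above 0, and all 3 genes of the apoptosome and apoptotic caspases lie below it.

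Trp53, the p53 gene itself, had implied log2 levels of 5.72 in intact and 5.52 in excised tumours per the authors' deposited table. Its log2 change was -0.20 with an implied 95% interval from -0.42 to 0.02, so its direction was not settled at this precision. Trp73, the gene of the third family member, was not listed.

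Among the genes of p53 feedback and cell cycle arrest, 5 of 7 were listed, 4 with negative and 1 with positive changes, and the median was -0.26 by the authors' deposited table. Mdm2, encoding the ubiquitin ligase that degrades p53, stood at 7.505 in intact and 7.195 in excised tumours, a log2 change of -0.31 ± 0.13 (SE, p = 0.0486) per the authors' deposited table. Zmat3, encoding an RNA-binding zinc finger protein, had a log2 change of -0.26 ± 0.10 (SE, p = 0.0401) by the authors' deposited table. Both lie just inside the unadjusted threshold, and the authors' deposited table leaves them far from the adjusted one (adjusted p = 0.684 and 0.642).
Cdkn1a, which encodes the cyclin-dependent kinase inhibitor p21 and with Ccng1 carries the closest match to the element shown above, differed in sign from them. Its implied log2 levels were 8.415 in intact and 8.645 in excised tumours, a change of 0.23 (p = 0.205) per the authors' deposited table, with an interval from -0.16 to 0.62. Ccng1, encoding cyclin G1, was at -0.16 (p = 0.0981) by the authors' deposited table, with an interval from -0.36 to 0.04. For Plk2, a stress-induced polo-like kinase gene, the change of -0.49 carried the widest interval of any member, from -1.44 to 0.46, per the authors' deposited table. Btg2, an antiproliferative gene, and Gadd45a, a growth arrest and DNA damage gene, were not listed.

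Of the p53 targets in DNA repair, Ercc5 had the smallest p of all members. This gene encodes the XPG endonuclease, which cuts on one side of a damaged stretch in nucleotide excision repair. Its implied log2 level was 5.635 in intact and 5.285 in excised tumours, and the change of -0.35 had an interval from -0.50 to -0.20 by the authors' deposited table. The p of 0.000933 became 0.107 when adjusted over all probes and 0.0387 when only the 16381 entries of the authors' deposited table were taken as tests. Ercc5 was the single member called under that smaller number of tests, where 2.97% of entries were. Its mean level of 5.46 was below the 5.5 of the level filter, so that setting left Ercc5 out. Polk, encoding the translesion polymerase kappa, was at -0.13 (p = 0.135) per the authors' deposited table. The damage recognition genes Xpc and Ddb2 were not listed.

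In stress and survival signalling, Phlda3, Sesn1 and Gdf15 were listed, all with negative changes by the authors' deposited table. Phlda3, a p53 target whose product competes with Akt for membrane lipids, showed the largest change of any member in either direction. Its level was 8.73 in intact and 8.07 in excised tumours, a signed fold of -1.58 per the authors' deposited table. The log2 change was -0.66 ± 0.18 (SE, p = 0.0084, adjusted p = 0.322), with an interval from -1.09 to -0.23, by the authors' deposited table. Sesn1, encoding a sestrin that restrains mTORC1, was at -0.49 with a wide interval from -1.10 to 0.12 per the authors' deposited table. Gdf15, a stress-induced cytokine gene, was at -0.11 at a mean level of 4.73, close to the floor of 4.62 among entries of the authors' deposited table. Sesn2, Aen and Trp53inp1 were not listed. PERP2 matched no symbol or older symbol in the RefSeq gene table. Perp, a desmosomal p53 and p63 target looked up after the values were known, was at -0.10 (p = 0.255) at a mean level of 4.95 by the authors' deposited table.

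Bax, Bbc3, Pmaip1, Fas and Tnfrsf10b were classed here as p53 targets with those above, 23 members in all. No other member, Bid included, was counted as a target. Of the 23, 14 were listed, 3 with positive and 11 with negative changes per the authors' deposited table. Their median log2 change was -0.15, and 1 was higher and 5 lower at an unadjusted p under 0.05. These 6 are 42.9% of the 14, beside 19.9% of all entries. The share was 42.9% of entries at a level of 5.5 or more and 11.8% of those below it. The 14 lie on both sides of that level, so neither share is matched to them. The 5 listed members with a promoter match to the element had a median change of -0.16, beside -0.13 for the 21 listed members with a promoter and no match. An unadjusted p under 0.05 was found for 1 of those 5 (Bbc3) and for 9 of those 21, beside 19.9% of all entries, by the authors' deposited table.

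The pro-apoptotic Bcl-2 family was the role with the most positive changes: 6 of 7 listed genes were positive, with a median of 0.19, per the authors' deposited table. Of all entries, 8351 of 16381 were positive, and 6300 of 12112 of those below a level of 5.5. At an unadjusted p under 0.05, 2 of the 7 genes were higher and 1 lower, or 42.9% together, beside 19.9% of all entries. Bid, encoding the BH3-only protein that caspase 8 cleaves to link death receptors to mitochondria, stood at 5.425 in intact and 5.695 in excised tumours. The change of 0.27 ± 0.07 (SE, p = 0.0091, adjusted p = 0.336) had an interval from 0.09 to 0.45 by the authors' deposited table. Pmaip1, encoding Noxa, was at 0.33 ± 0.13 (SE, p = 0.0366) per the authors' deposited table, with implied levels of 5.015 and 5.345. Bbc3, which encodes Puma and is like Pmaip1 a p53 target, had a change of the opposite sign, -0.14 ± 0.05 (SE, p = 0.039), by the authors' deposited table. The Bbc3 entry was dim, at a mean level of 4.93. Of the positive genes, Bik (4.94), Bmf (4.99), Pmaip1 (5.18) and Bcl2l11 (5.38) were also below a level of 5.5. Only Bid (5.56) and Bak1 (5.61) were above it.
Bmf, Bcl2l11 and Bak1 each had a log2 change of 0.19 and Bik one of 0.11 per the authors' deposited table, none with an unadjusted p under 0.05. Bax and Bad were not listed. On the anti-apoptotic side Bcl2 was at -0.07 (p = 0.40) with a mean level of 4.85 by the authors' deposited table, and Mcl1 and Bcl2a1a were not listed. Bcl2a1b and Bcl2a1d, near-identical copies of Bcl2a1a whose probes may not tell them apart, were at -0.32 and -0.22 (p = 0.34 and 0.164) per the authors' deposited table.

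In the apoptosome and among apoptotic caspases, all 3 listed members were negative, with a median of -0.33, by the authors' deposited table. Cycs, the gene of cytochrome c, which serves both respiration and the apoptosome, stood at 7.39 in intact and 7.01 in excised tumours. Its log2 change of -0.38 ± 0.10 (SE, p = 0.00623, adjusted p = 0.28) was the second smallest p among members per the authors' deposited table. Casp6, an executioner caspase gene, was at -0.33 ± 0.12 (SE, p = 0.0276) by the authors' deposited table. Casp9, the initiator caspase gene of the apoptosome, was at -0.19 (p = 0.0642) per the authors' deposited table, with an interval from -0.40 to 0.02. Apaf1 was not listed.
Birc2, encoding the ubiquitin ligase cIAP1, was at -0.23 ± 0.07 (SE, p = 0.0174) per the authors' deposited table. The RefSeq gene table gives Birc2 as an older symbol of Birc3 as well, so the Birc2 entry may stand for either gene. Xiap, a direct caspase inhibitor gene, was found only under its older symbol Birc4, at 0.05 (p = 0.403) by the authors' deposited table, and is not counted among the 30. Birc3 under its own symbol and Diablo, the antagonist of these inhibitors, were not listed.

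**Figure D2:**
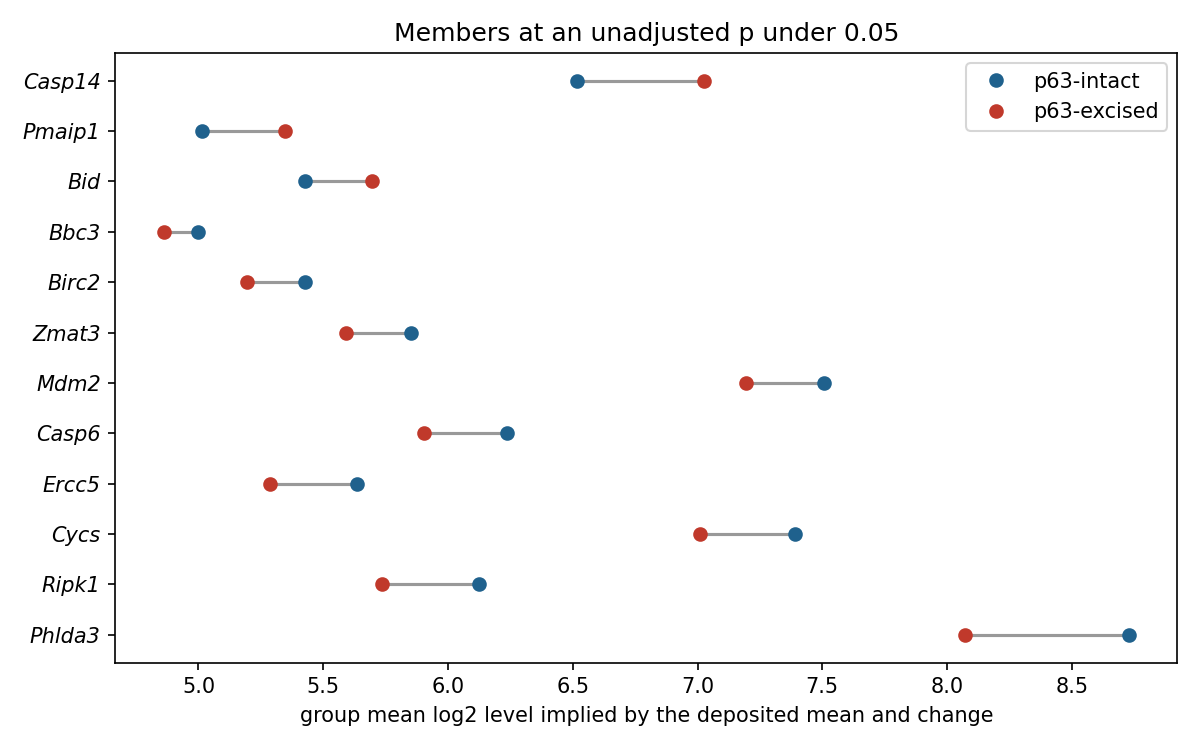
Implied mean log2 level (x axis) in p63-intact (blue) and p63-excised (red) tumours for the 12 members at an unadjusted p under 0.05, ordered by log2 change. Levels are to be compared within a gene, not between genes. The excised level is the lower one in 9 genes and the higher one in Bid, Pmaip1 and Casp14.

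In the death receptor pathway, Ripk1 had the smallest p of 4 listed genes. It encodes the kinase that joins receptor complexes and directs them to survival or death, and was at 6.125 in intact and 5.735 in excised tumours. That is a log2 change of -0.39 ± 0.15 (SE, p = 0.0353, adjusted p = 0.607) per the authors' deposited table. Tnfrsf10b, the gene of the mouse TRAIL receptor and a p53 target, was at 0.23 with an interval from -0.04 to 0.50 by the authors' deposited table. Fas, the receptor for Fas ligand, was at -0.09 (p = 0.17), and Cflar, which encodes the caspase 8 inhibitor c-FLIP, was at -0.05 (p = 0.446) at a mean level of 4.82 per the authors' deposited table. The adaptor genes Fadd and Tradd were not listed.

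Casp14, the caspase gene of terminal epidermal differentiation, whose product processes filaggrin rather than killing cells, had the highest change among members. Its level was 6.515 in intact and 7.025 in excised tumours, a log2 change of 0.51 ± 0.21 (SE, p = 0.046, adjusted p = 0.675) by the authors' deposited table, with an interval from 0.01 to 1.01. The inflammatory caspase genes Casp1 and Casp4 were at -0.29 and -0.11 (p = 0.183 and 0.238) per the authors' deposited table, and Casp12 was not listed. Macrophages express Casp1 and Casp4 too, and of 11 listed myeloid markers 5 were positive and 6 negative, with a median of -0.27, by the authors' deposited table. Lyz2, encoding lysozyme, and Adgre1, encoding a macrophage surface receptor, were at -1.73 and -0.27 (p = 0.00627 and 0.0319), and none of the 11 passed adjustment per the authors' deposited table. These 2 alone had an unadjusted p under 0.05, or 18.2% of the 11, beside 19.9% of all entries. The 5 positive markers were S100a8, Cd68, Cd14, Csf3r and Ptprc, at 0.53, 0.47, 0.42, 0.10 and 0.04. In bulk tumours, fewer cells of a type and less RNA per cell cannot be told apart, and the part of myeloid cells in the caspase values was not tested.

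**Figure D3:**
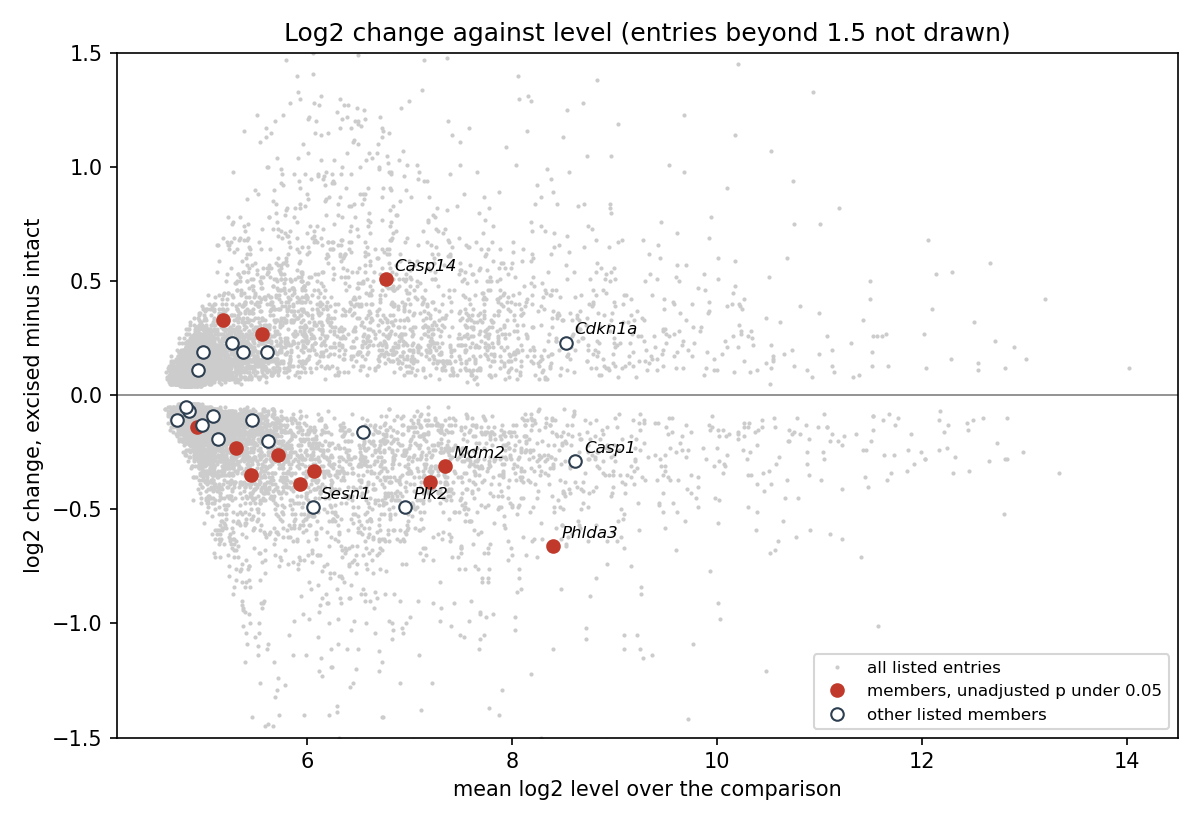
Log2 change (y axis) against mean log2 level (x axis) for all entries of the authors' deposited table (grey) and the 30 listed members (red where the unadjusted p was under 0.05, open otherwise). Entries with p above 0.462 are absent, which leaves the empty band around 0, and entries changed by more than 1.5 lie outside the axis. Members lie inside the cloud of other entries, between -0.66 and 0.51.

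The other genes of these pathways were taken from 5 further lists ordered by role. Past adjustment were 1.16% of all entries, the share to set beside each list's count of calls. Of 19 listed further p53 targets (40 genes in the list), 12 were positive and 7 negative, with a median log2 change of 0.11, and none passed adjustment by the authors' deposited table. Without adjustment, 3 were higher and 1 lower at a p under 0.05, or 21.1% together, beside 19.9% of all entries. Plk3, a stress-responsive polo-like kinase gene, was at 1.40 (p = 0.00133, adjusted p = 0.13), and Ephx1, an epoxide hydrolase gene, at 0.88 (p = 0.0125) per the authors' deposited table. Steap3, a metalloreductase gene, was at 0.25 (p = 0.00274), and Sfn, encoding the epidermal cell cycle protein 14-3-3 sigma, at -0.64 (p = 0.00809) by the authors' deposited table. The signed fold was 2.63 for Plk3 and -1.41 for the member Plk2 per the authors' deposited table.

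Of 10 listed p53 regulators (20 in the list), 7 were positive and 3 negative with a median of 0.14, and none passed adjustment by the authors' deposited table. Without adjustment, 4 were higher and 1 lower at a p under 0.05, beside 9.31% and 10.6% of all entries. Cdkn2a, the locus of the cell cycle inhibitor p16Ink4a and of p19Arf, an inhibitor of Mdm2, came nearest: its implied level was 6.075 in intact and 7.645 in excised tumours, a log2 change of 1.57 (p = 0.000415, adjusted p = 0.0724) per the authors' deposited table. Taking the listed entries as all tests, its adjusted p was 0.0262. The sources used here do not say which of both Cdkn2a transcripts the probe reads. Trp53bp2, encoding the p53-binding protein ASPP2, was at 0.24 (p = 0.00738) by the authors' deposited table. Rfwd2 and Rchy1, encoding ubiquitin ligases for p53, were at -0.24 and 0.30 (p = 0.0249 and 0.0473) per the authors' deposited table.

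Among 16 listed further genes of the Bcl-2 family and its partners (20 in the list), 1 rose, none fell and 15 did not pass by the authors' deposited table. Of all entries, 0.659% were higher and 0.501% lower past adjustment. The gene that rose, Bcl2l15, a Bcl-2-like gene entered under an older symbol, went from 7.175 to 8.865 in implied log2 level, a change of 1.69 (adjusted p = 0.0402) per the authors' deposited table. Of the 16, 11 were negative, the median was -0.18, and 2 were higher and 3 lower at an unadjusted p under 0.05, or 31.2% together beside 19.9% of all entries, by the authors' deposited table. Bcl10, an adaptor gene of NF-kappaB signalling, was at -0.69 (p = 0.0242), Bclaf1, a Bcl-2-associated factor gene, at -0.68 (p = 0.00871), and Bnip2 at 0.29 (p = 0.0183) per the authors' deposited table.

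Among 12 listed genes of the further death receptor pathway list (23 in the list), 1 rose, none fell and 11 did not pass, beside 1.16% of all entries called. That list is wider than the death receptors themselves. Of the 12, 10 were positive, with a median of 0.08, by the authors' deposited table. Without adjustment, 2 were higher and 1 lower at a p under 0.05, or 25.0% together, beside 19.9% of all entries. Tnfrsf12a, encoding Fn14, the receptor of the cytokine TWEAK, rose by 1.30 in log2, a fold of 2.45 (adjusted p = 0.0277), from an implied 7.42 to 8.72 per the authors' deposited table. Tnfrsf1a, encoding TNF receptor 1, whose signal runs through Tradd and Ripk1, was at 0.87 (p = 0.00452, adjusted p = 0.243) by the authors' deposited table. Mlkl, encoding the membrane-rupturing effector of necroptosis, was at -0.66 (p = 0.00706), and Dap, a death-associated protein gene, at 0.42 (p = 0.086) by the authors' deposited table.
Of 12 listed further caspase pathway genes (22 in the list), 10 were negative with a median of -0.10, and none had even an unadjusted p under 0.05 per the authors' deposited table. The smallest p there were those of Aifm2 at 0.13 (p = 0.0985), Pycard at -0.12 (p = 0.129), Nlrp3 at -0.10 (p = 0.147) and Gsdmc at -0.10 (p = 0.155) by the authors' deposited table.

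**Figure D4:**
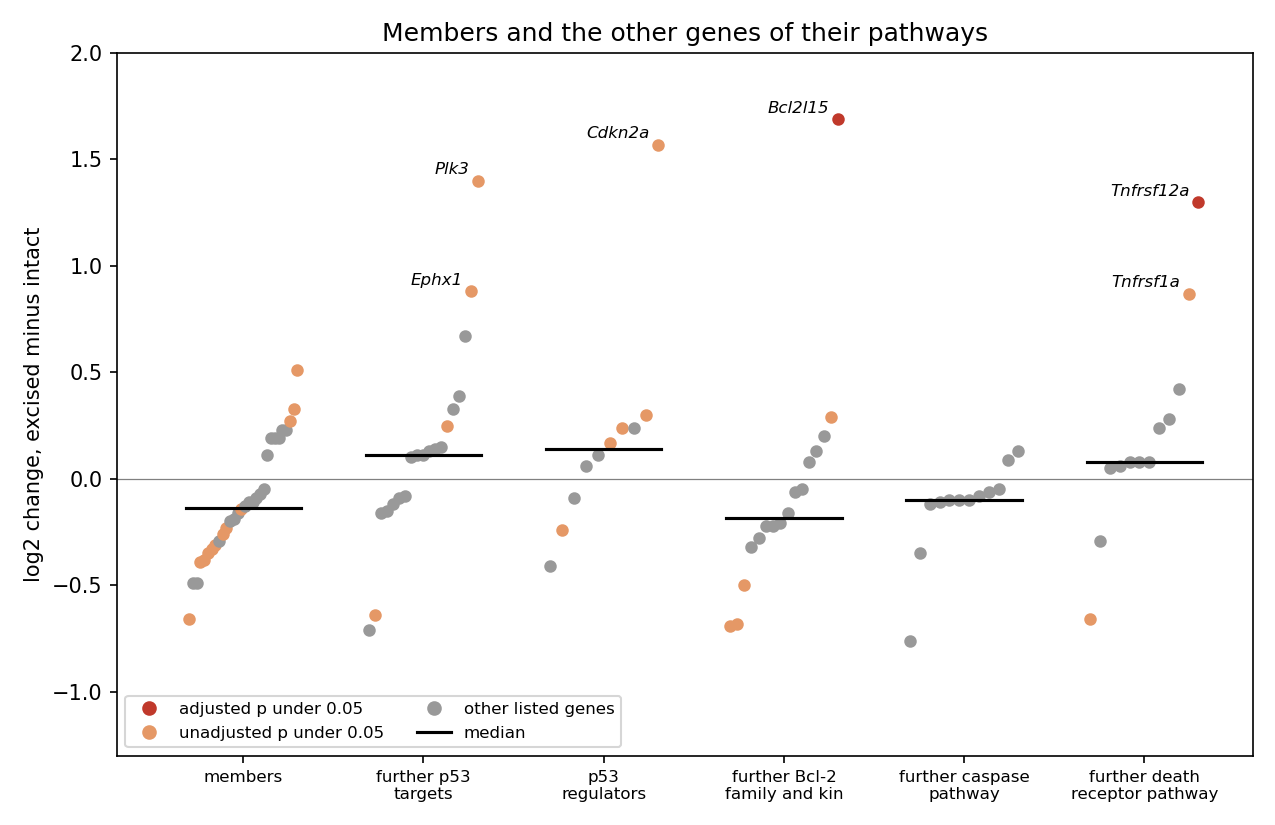
Log2 change (y axis) of the listed members and of the listed genes of 5 further pathway lists (x axis), with each list's median as a bar. Points are red where the adjusted p was under 0.05 (Bcl2l15 and Tnfrsf12a), orange where only the unadjusted p was, and grey otherwise. The members span -0.66 to 0.51, while Bcl2l15, Cdkn2a, Plk3 and Tnfrsf12a lie at 1.30 or above.

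Whole tumours also hold host tissue, whose marker lists are given as counts because levels per tumour could not be summed for named genes. All 13 skeletal muscle markers had positive changes (median 0.56, 8 at an unadjusted p under 0.05), and 4 of 6 listed endothelial markers were negative (median -0.39, 2 at an unadjusted p under 0.05, both lower), beside 19.9% of all entries, by the authors' deposited table. Of 6 listed fibroblast markers 4 were negative with a median of -0.50, and 1, the matrix protein gene Fbln1, fell by 0.82 in log2 (adjusted p = 0.0482) per the authors' deposited table. Of all entries, 1.16% passed adjustment, 0.501% with a lower level. Dimmer entries than a mean level of 5.5 were also left out, with all probes of the array still taken as tests. The adjusted p of Fbln1 was then 0.0557 by the authors' deposited table. This setting could only raise an adjusted p, so it does not show whether the call would fail among brighter entries alone. Lymphocyte markers were near the lowest listed level, with 5 of 12 listed and changes from -0.17 to 0.14 by the authors' deposited table. Keratinocyte markers had 6 of 10 listed genes negative and a median of -0.17, and Sfn alone had an unadjusted p under 0.05 per the authors' deposited table. That is 10% of the listed markers, beside 19.9% of all entries. The negative ones were Trp63 itself, Sfn (also a further p53 target), Cdh3, Dsc3, Itgb4 and Perp, at -0.25, -0.64, -0.31, -0.43, -0.34 and -0.10. The positive ones were the keratin genes Krt5, Krt14, Krt6a and Krt6b, at 0.27, 0.12, 0.52 and 0.14. The part of these cell types in the members' changes was not tested.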

How the data were processed

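RNA of 6 whole tumours was measured on Illumina bead arrays, per the labels' protocols. The authors deposited a table of signal intensity and detection p-value per probe, per the file headers, in which each array has the same mean, so it was scaled before deposit. Their second table gives, per the file headers, for each gene name a log2 change, a mean log2 level, a signed fold change, a t score, a log-odds score and an unadjusted p-value. The sources used here state neither its normalization nor the way from probes to genes. R 2.12.0 appears in the submitters' processing notes. A further table, of values per probe, was not used.

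Benjamini-Hochberg adjustment took all 45281 probes as tests, the most there can have been. Standard errors are the log2 change divided by t. Intervals use 6.7 degrees of freedom, at which the listed t and p belong together. Group levels are the values whose mean is the mean level and whose difference is the change, which assumes 3 equally weighted arrays a group. The p53 element search used RefSeq promoters of GRCm38.p6. Of 200 genes in the further pathway and marker lists, counted once per list, 120 had an entry, 9 through an older symbol that belongs to 1 gene alone. Sfn stands in more than 1 list. Python 3.11.15, pandas 2.3.3, numpy 2.4.6, scipy 1.17.1 and matplotlib 3.10.9 were used, and the adjustment and the element search were tested on simulated data.

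The members and lists were chosen with earlier results of these data known. Named are all listed members, with full values where the unadjusted p was under 0.05 or the smallest of a role, and of each further list up to 4 genes with the smallest p. The planned fit of array values was not run, since no table pairs probes with genes. The number of arrays limits the precision.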

Additional observations from a re-analysis of the deposited data

How the results depend on the processing

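Of the 30 listed members 0 passed over all 45281 tests, 0 with a log-odds score above 0, 0 at a mean log2 level of at least 5.5 and 0 with older symbols matched too, while 1 (Ercc5) passed when the listed entries alone were taken as tests. The fewer tests taken are the construction of that setting. The level setting left out dim entries but kept 45281 tests, so it could only raise an adjusted p. It could add no call, and its 0 was fixed in advance. The 12 members at an unadjusted p under 0.05 became 8 at a mean log2 level of at least 5.5, 12 with older symbols matched too, 2 (Phlda3 and Casp14) when a log2 change of at least 0.5 was required as well, and 4 at an unadjusted p under 0.01. Taking the listed entries as tests also moved the further p53 targets from 0 to 1 call (Plk3) and the p53 regulators from 0 to 1 (Cdkn2a). The same change of tests took the share of all entries called from 1.16% to 2.97%. The calls in the other 3 pathway lists stayed at 1, 0 and 1 under both settings tried. By the authors' deposited table, members nearest the unadjusted threshold were Zmat3, Casp14 and Mdm2 inside it (p = 0.0401, 0.046 and 0.0486) and Casp9, Trp53 and Tnfrsf10b outside it (p = 0.0642, 0.0713 and 0.0821). No paired analysis was possible because the table that names genes holds no values per array, and for the same reason leaving out each array, the value table and the filter on dim probes were not run for members. For dim entries, such as Gdf15 and Bbc3, signal over background limits how far a fall can show.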

Other observations

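Relatives of the members were looked up by symbol stem (Gadd45, Sesn, Ccng, Btg, Plk, Phlda, Ercc, Tnfrsf, Cdkn, Trp53inp, Gdf, Ripk and Zmat), a rule chosen after the data had been seen. Of 28 entries found in the authors' deposited table and in no list above, 18 had positive and 10 negative changes, with a median log2 change of 0.09, and none passed adjustment. At an unadjusted p under 0.05 there were 6, or 21.4%, beside 19.9% of all entries in the authors' deposited table. Tnfrsf22, encoding a mouse decoy receptor for TRAIL, was at 1.06 (p = 0.0093), while Tnfrsf18 and Tnfrsf11b, encoding the receptors GITR and osteoprotegerin, were at -0.47 and -0.40 (p = 0.00315 and 0.00733) in the authors' deposited table. Trp53inp2, an autophagy gene related to Trp53inp1, was at 0.78 (p = 0.032), Cdkn1c, encoding the cell cycle inhibitor p57, at 0.77 (p = 0.0377), and Ercc3, a repair helicase gene, at 0.34 (p = 0.0109) in the authors' deposited table.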
